A study of Mus musculus with 30 samples.

Results

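Matricellular and provisional matrix proteins are secreted proteins that sit in the extracellular matrix and act on cells more than they bear load. Their genes were followed here through 6 cell populations sorted from mouse mammary tumours. The set was chosen by name and holds 10 genes, Fn1, Tnc, Postn, Vcan, Sparc, Sparcl1, Thbs1, Thbs2, Thbs3 and Spon1. All 10 were found among the 14118 genes of the deposited count matrix.

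Fibronectin (Fn1) and the proteoglycan versican (Vcan) form the loose provisional matrix of wounds and tumours, on which cells spread and migrate through integrins and hyaluronan receptors. Tenascin C (Tnc) and periostin (Postn) are laid onto that matrix in remodelling tissue, the thrombospondins (Thbs1, Thbs2, Thbs3) bind cell surface receptors, growth factors and proteases, SPARC (Sparc) and its relative hevin (Sparcl1) bind collagen, and F-spondin (Spon1) was first described in the floor plate of the embryonic spinal cord. In mammary tumours fibroblasts are known as a main source of such proteins.

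The tumours were mammary adenocarcinomas of FVB/N-Tg(MMTVPyVT)634Mul/J mice, in which the MMTV promoter, active mainly in mammary epithelium, drives polyoma virus middle T antigen. Every group carries this transgene, none is from healthy tissue, and ages are not given in the labels. Tumours numbered 5, 6, 8, 10 and 11 came from 5 mice and had reached 750 mm3, and each gave 1 library of each population, so n = 5 per group and 30 libraries in all. The endothelial group was sorted as CD45- CD31+. The cancer-associated fibroblasts (CAF) were CD45- CD31- CD90+ and were divided into CAF1 (CD34-) and CAF2 (CD34+). The tumour-associated macrophages (TAM) were CD45+ F4/80+ and were divided into CD206+ MHCII_low cells (called CD206hi here, after their titles), CD206+ MHCII_high cells (CD206pos) and CD206- MHCII_low cells (CD206neg).

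Totals per library ran from 6292411 to 11957076 counts, at which 3 counts, the upper limit that a count of 0 allows, come to 0.251 to 0.477 CPM (counts scaled to library size); such limits cover counting error only. Levels below are CPM scaled by TMM factors (trimmed mean of M values, a correction for composition) of the fit of all libraries, written CPM for short, and values of single tumours stand in the order 5, 6, 8, 10 and 11. The sorted types carried their markers: 8 endothelial genes summed to 1955 to 4862 CPM in endothelial libraries, against 39.8 to 90.5 in CAF1 and 51.5 to 99.9 in CAF2, and 8 macrophage genes to 16358 to 64277, 16687 to 41492 and 15049.7 to 66585 CPM in CD206hi, CD206pos and CD206neg, against at most 51.9 CPM in any endothelial or CAF library. Pecam1, which encodes CD31, stood at 0 to 0.439 CPM in CAF1 and 0.755 to 3.14 CPM in CAF2. Most of the endothelial sum in CAF2 was Tek, at 45.7 to 97.5 CPM. Other cell types were also seen: 9 luminal epithelial genes summed to 414 to 5689 CPM in endothelial libraries, 692 to 4126 in CAF1, 19.1 to 993 in CAF2 and 71.9 to 939, 70.4 to 1466 and 47.6 to 1749 in CD206hi, CD206pos and CD206neg. By expression, 25 of 30 libraries lay nearest to one of their own group. For CD206neg of tumours 6 and 8 the matrix headings say MHC class II high but the sample labels say low, and grouping went by the labels.

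By mean, the set took the largest share of counts in CAF1. The 10 genes took 2.67% ± 0.796 of all counts in endothelial libraries, 4.79% ± 1.51 in CAF1 and 3.38% ± 0.671 in CAF2 (SD, n = 5 each), and 0.0399% ± 0.0239, 0.0690% ± 0.0325 and 0.0254% ± 0.0166 in CD206hi, CD206pos and CD206neg. In bulk RNA, fewer cells of a type and less RNA per cell cannot be told apart, which holds for the levels below as well. Sparc alone took 2.28%, 3.07% and 2.18% of counts in the first 3 groups. Compared per kilobase of exon, so that genes can be set against each other, Sparc had the highest level of the 10 in the endothelial, CAF1 and CAF2 groups (5994, 11919 and 7491 CPM per kb). The second place fell to Sparcl1 in endothelial cells (842 CPM per kb) and to Postn in CAF1 and CAF2 (3638 and 1422 CPM per kb). In each of the 3 macrophage groups the order was led by Fn1, at 42.4, 81.4 and 27.5 CPM per kb in CD206hi, CD206pos and CD206neg, before Sparc. Gene lengths shift the lower places, Spon1 above all, whose exons cover 10382 bases, while its longest transcript has 6161.

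By mean level over the 6 populations, CAF1 came first for 6 of the 10 genes (Tnc, Postn, Sparc, Thbs1, Thbs2, Spon1), CAF2 for 3 (Fn1, Vcan, Thbs3) and the endothelial group for Sparcl1. The leading group overlapped with the next in the single libraries for 5 of them, Postn, Vcan, Sparc, Thbs1 and Thbs2, whose second group was the other CAF subset. No overlap with the next group was seen for Fn1, Tnc, Sparcl1, Thbs3 and Spon1. The share of all 14118 genes led by CAF1, or without overlap, is not given here, so these counts describe the 10 genes only. Lower in the order, the macrophage groups ran into each other: Postn, Sparc and Sparcl1 had mean levels within 2.87 to 3.64, 24.5 to 28.8 and 2.36 to 3.74 CPM over the 3, with overlapping ranges.

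**Figure D1:**
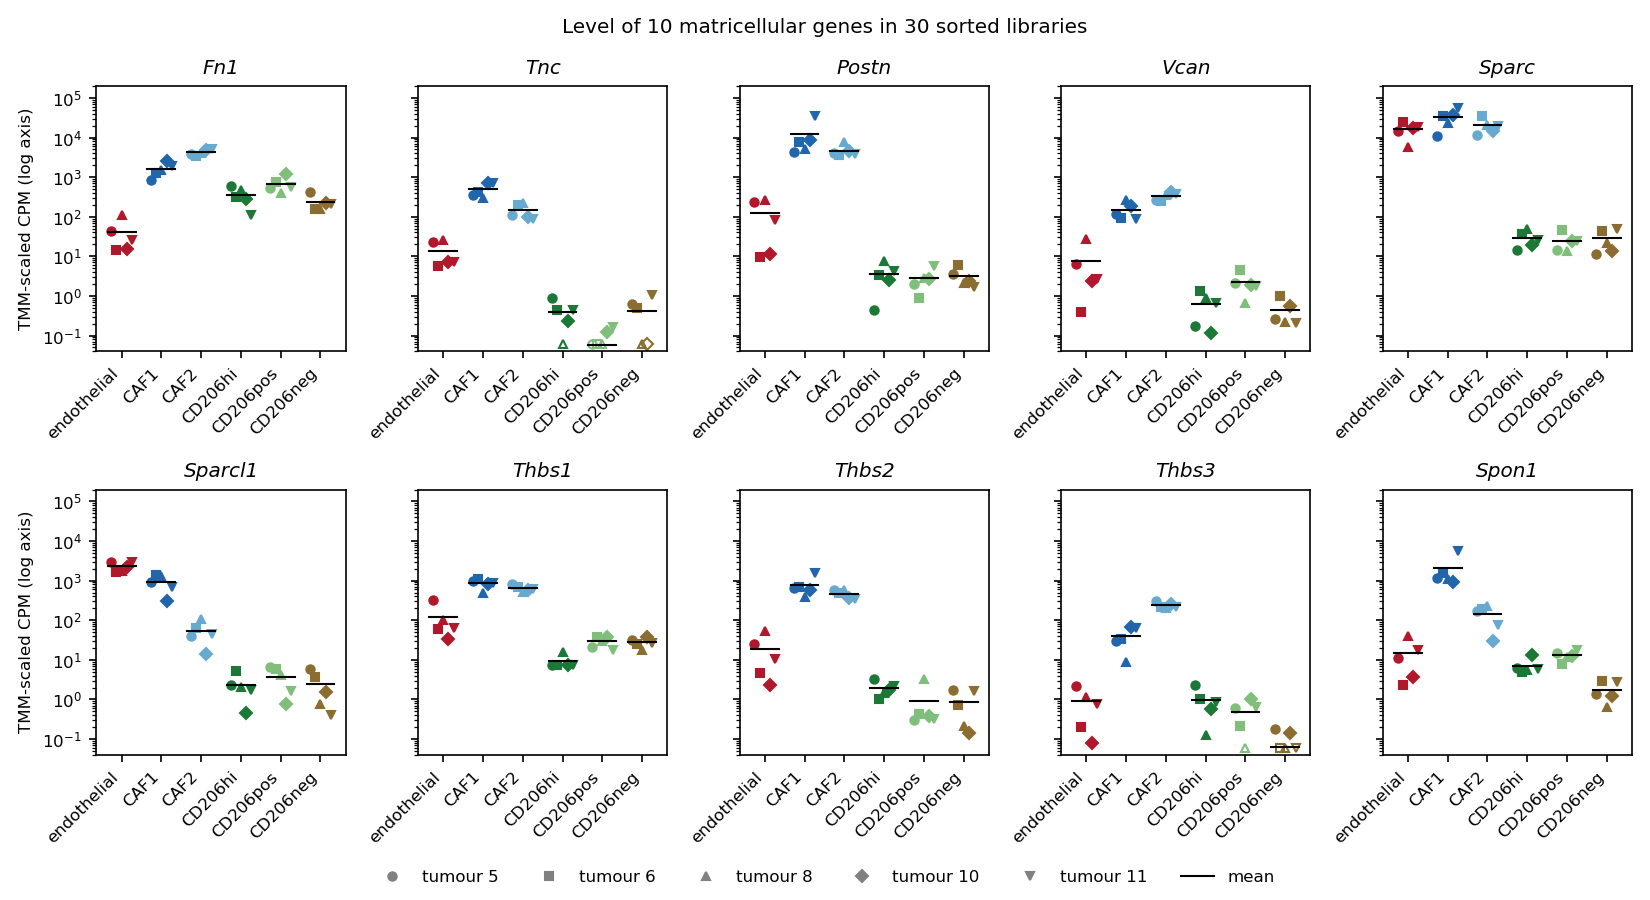
Level of the 10 genes in every library, in TMM-scaled CPM on a log axis, for the 6 populations; each point is 1 tumour, the bar is the mean of 5, and open points at the foot of a panel are libraries with a count of 0. Every CAF library lies above every macrophage library for each gene but Fn1, by the least for Spon1 (CAF2 of tumour 10 at 29.3 CPM, CD206pos of tumour 11 at 18.0 CPM), and Sparcl1 is the one gene whose endothelial mean is the highest. The share of all genes without such overlap is not given here.

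Both CAF subsets are CD90+, and CD34 alone parts them, so the first comparison asks which genes of the set differ with CD34. The set was split: Sparcl1, Spon1 and Tnc were higher in CAF1, Fn1, Vcan and Thbs3 were lower, and Postn, Sparc, Thbs1 and Thbs2 did not pass the test. That is 3 of 10 genes higher, against 10.9% of the 12149 genes tested, and 3 of 10 lower, against 8.59%. The median log2 fold change was 0.71 over the 10 genes and 0.01 over all genes tested. The test was edgeR's quasi-likelihood F test on the 10 fibroblast libraries, with Benjamini-Hochberg adjustment over all genes, and p values below are adjusted in this way unless another method is named. Log2 fold changes carry their standard error (SE), and means their SD.

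Sparcl1 encodes hevin, a collagen-binding protein of the SPARC family (Entrez gene 13602, chromosome 5, 104079108 to 104114088 in GRCm38.p6, as are the positions below). It stood at 919, 1365, 1293, 298 and 694 CPM in CAF1, against 40.1, 63.0, 111, 14.0 and 46.0 CPM in CAF2. Every CAF1 library lay above every CAF2 library, and CAF1 was the higher in 5 of 5 tumours, by between 11.7-fold in tumour 8 and 22.9-fold in tumour 5. Its log2 fold change was 4.07 ± 0.55 (16.8-fold, adjusted p = 0.000266). Within CAF1 the libraries of tumours 5, 6 and 8 were high and those of tumours 10 and 11 low, and the summed level of 10 pericyte and smooth muscle genes had the same split, at 2859, 3461, 5166, 1922 and 1315 CPM, against 149 to 268 CPM in CAF2. Each of the 10 genes was at 7 CPM or more in every CAF1 library, the lead being Acta2 (764 to 3415 CPM) and Rgs5 (246 to 893 CPM). Spon1 and Tnc did not share this split, both being highest in CAF1 of tumour 11 (5585 and 724 CPM), where the sum was lowest. The part of pericytes and smooth muscle in the Sparcl1, Spon1 and Tnc differences was not tested. With the CAF1 library of the highest sum, tumour 8, left out, the log2 fold change of Sparcl1 was 3.93 ± 0.56. The other CAF1 libraries, at 1315 to 3461 CPM, still held more of these genes than any CAF2 library. This fit therefore cannot show the part of such cells.

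Spon1 encodes F-spondin, a secreted protein with thrombospondin repeats (Entrez gene 233744, chromosome 7, 113765998 to 114043375). It stood at 1183, 1525, 1108, 907 and 5585 CPM in CAF1, against 173, 196, 229.6, 29.3 and 73.6 CPM in CAF2. CAF1 of tumour 11 was far above the other 4, and even the lowest CAF1 library was above the highest of CAF2. This gave a log2 fold change of 3.89 ± 0.67 (14.8-fold, adjusted p = 0.00138), and without CAF1 of tumour 11 it was 3.10 ± 0.50 (adjusted p = 0.00127). The same library had the highest sum of 7 fibroblast markers, 153234 CPM, against 16603 to 57934 in the other CAF1 libraries and 25360.2 to 44151 in CAF2.

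Tnc, the gene of tenascin C (Entrez gene 21923, chromosome 4, 63959785 to 64047015), had 361, 409, 305, 714 and 724 CPM in CAF1, against 109, 199.7, 221, 100.1 and 89.8 CPM in CAF2. The groups did not overlap, although tumours 5, 6 and 8 were 1.38- to 3.30-fold apart while tumours 10 and 11 were 7.13- and 8.06-fold apart. Tnc had a log2 fold change of 1.81 ± 0.34 (3.52-fold, adjusted p = 0.00238). The 4 myoepithelial genes Krt14, Krt5, Trp63 and Krt17, all above 1 CPM in every CAF1 library, summed to 82.1 to 2755 CPM in CAF1, with the top value in tumour 5, and to 0.0713 to 9.33 CPM in CAF2. Without CAF1 of tumour 5 the log2 fold change of Tnc was 1.91 ± 0.35. The other CAF1 libraries still held more of these genes than any CAF2 library, and their part in the Tnc difference was not tested.

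Fn1, which encodes fibronectin, the main adhesive glycoprotein of the provisional matrix (Entrez gene 14268, chromosome 1, 71585473 to 71653280), ran the other way. It had 851, 1289, 1538, 2517 and 1883 CPM in CAF1, against 3860.1, 3379.5, 4031, 4805 and 4987 CPM in CAF2. The highest CAF1 library, tumour 10, stayed below the lowest of CAF2, and CAF1 was the lower in 5 of 5 tumours. On the log2 scale the change was -1.37 ± 0.32, 2.58-fold lower in CAF1 (adjusted p = 0.00926).

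Vcan encodes versican, a large chondroitin sulfate proteoglycan that binds hyaluronan (Entrez gene 13003, chromosome 13, 89655309 to 89743027). Its levels were 117, 91.2, 260.4, 183 and 87.7 CPM in CAF1, against 264, 250.1, 361, 426 and 379.7 CPM in CAF2. CAF1 was lower within each tumour, but its tumour 8 library lay above CAF2 of tumour 6, so the groups overlapped. For Vcan the log2 fold change was -1.16 ± 0.31 (2.24-fold lower, adjusted p = 0.0184). This call ended when tumour 10 or tumour 11 was left out of both groups (adjusted p = 0.0521 and 0.0784) and in the fit of all 30 libraries (0.159), with log2 fold changes of -1.46 to -0.97 over all fits with a library or tumour left out.

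Thbs3 encodes a thrombospondin that forms pentamers (Entrez gene 21827, chromosome 3, 89215180 to 89226841). It had 30.1, 34.2, 8.97, 67.1 and 64.3 CPM in CAF1, against 312, 216, 199, 260.0 and 219 CPM in CAF2. CAF1 was lower in every tumour, and the lowest library was CAF1 of tumour 8. Its log2 fold change was -2.55 ± 0.42 (5.86-fold lower, adjusted p = 0.000954). The 6 adventitial fibroblast genes Cd34, Pi16, Dpp4, Sema3c, Cd55 and Ly6c1, of which Cd34 is part of the gate, were lower in CAF1 as well. They summed to 312, 860.3, 97.2, 933 and 1959 CPM in CAF1, against 5582 to 9310.1 CPM in CAF2. Within CAF1, this sum and Thbs3 were lowest in tumour 8. Vcan was highest there (260.4 CPM) and lowest in tumour 11 (87.7 CPM), where the sum was highest. Fn1 was lowest in CAF1 of tumour 5 (851 CPM). The part of adventitial fibroblasts in the Thbs3, Fn1 and Vcan differences was not tested.

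The other 4 genes did not pass the test. Postn, which encodes periostin, a partner of collagen and tenascin (Entrez gene 50706, chromosome 3, 54359267 to 54391041), had 4274, 7587, 5068, 8455 and 34448 CPM in CAF1, against 4018, 3566, 7494, 4525 and 3785 CPM in CAF2. Tumour 11 of CAF1 stood far above every other library, while the CAF2 library of tumour 8 was above its CAF1 partner. Postn had a log2 fold change of 1.37 ± 0.57 (95% interval 0.13 to 2.61, adjusted p = 0.121) and 0.46 ± 0.33 without CAF1 of tumour 11.

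Sparc, a collagen-binding protein and the most abundant transcript of the set (Entrez gene 20692, chromosome 11, 55394159 to 55420080), had 11226, 34948, 23546, 36468 and 55968 CPM in CAF1, against 11708, 35839.7, 20969, 14335 and 19064 CPM in CAF2. The pairs of tumours 5, 6 and 8 lay within 1.12-fold of each other, and tumours 10 and 11 were 2.54- and 2.94-fold higher in CAF1. The log2 fold change was 0.68 ± 0.52 (95% interval -0.45 to 1.81, adjusted p = 0.426).

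Thbs1 (Entrez gene 21825, chromosome 2, 118111876 to 118127133) and Thbs2 (Entrez gene 21826, chromosome 17, 14665500 to 14694262) encode the trimeric thrombospondins, known as inhibitors of angiogenesis. Thbs1 had 993, 1069.8, 489, 805 and 882 CPM in CAF1, against 818, 679.6, 516, 566 and 601 CPM in CAF2, a log2 fold change of 0.43 ± 0.24 (95% interval -0.09 to 0.95, adjusted p = 0.253). Thbs2 had 647, 708, 380.0, 582 and 1560.4 CPM in CAF1, against 569, 483, 567, 369 and 339.6 CPM in CAF2, a log2 fold change of 0.75 ± 0.34 (95% interval 0.01 to 1.49, adjusted p = 0.153), again with CAF1 of tumour 11 far above the rest. For both, CAF1 was higher in 4 of 5 tumours, tumour 8 being the exception. With limma's voom and quality weights both passed the threshold (adjusted p = 0.0342 for Thbs1 and 0.0445 for Thbs2).

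**Figure D2:**
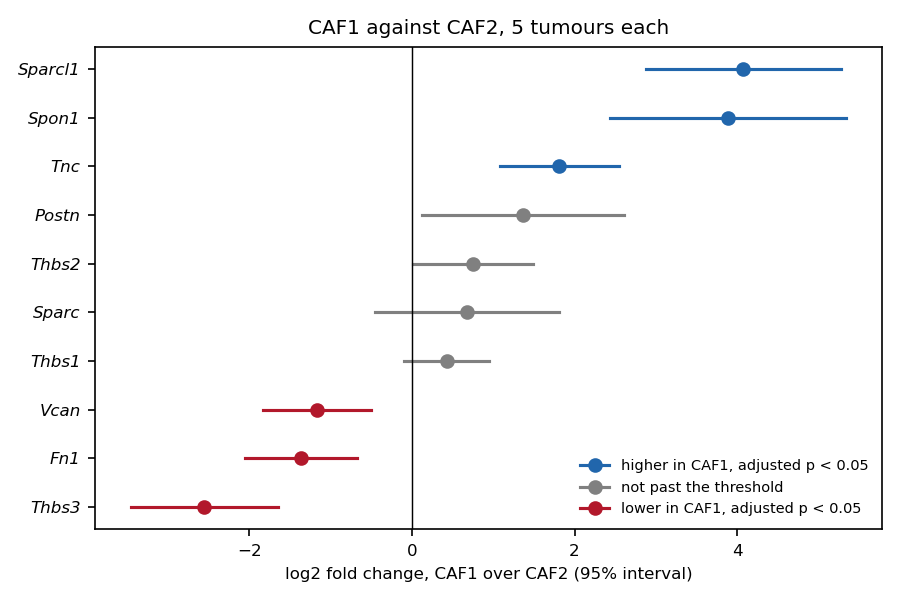
Log2 fold change of CAF1 over CAF2 for the 10 genes, with points for the estimate and lines for its 95% interval; blue genes were higher in CAF1, red genes lower, and grey genes did not pass the test. Sparcl1 and Spon1 lie near a log2 fold change of 4, and Thbs3 lies lowest.

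Of the 6 genes that parted the subsets, 3 have a promoter entry that overlaps no annotated exon, and these are printed to show what stands before the starts of 1 gene that was higher in CAF1 (Tnc) and 2 that were lower (Vcan, Thbs3). Each is the 250 bases before a start in the RefSeq table, 5′ to 3′ on the gene's strand, on GRCm38.p6, at chr4:64047016-64047265 (minus strand), chr13:89742513-89742762 (minus strand) and chr3:89214930-89215179 (plus strand). The Vcan start is an inner one, so its window lies inside the gene span given above, while those of Tnc and Thbs3 adjoin it from outside. Capitals mark matches, on either strand, to the TATA box letters TATANA, to the GC box letters GGGCGG or to the CCAAT box.
Tnc: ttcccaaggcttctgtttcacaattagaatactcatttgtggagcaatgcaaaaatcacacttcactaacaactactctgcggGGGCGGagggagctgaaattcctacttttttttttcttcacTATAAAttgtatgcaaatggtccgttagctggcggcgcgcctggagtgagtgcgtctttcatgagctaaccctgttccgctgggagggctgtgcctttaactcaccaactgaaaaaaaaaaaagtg
Vcan: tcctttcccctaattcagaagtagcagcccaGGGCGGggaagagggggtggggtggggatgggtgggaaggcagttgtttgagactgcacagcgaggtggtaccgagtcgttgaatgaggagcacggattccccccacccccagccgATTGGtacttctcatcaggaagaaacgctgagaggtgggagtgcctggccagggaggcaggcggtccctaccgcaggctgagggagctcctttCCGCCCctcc
Thbs3: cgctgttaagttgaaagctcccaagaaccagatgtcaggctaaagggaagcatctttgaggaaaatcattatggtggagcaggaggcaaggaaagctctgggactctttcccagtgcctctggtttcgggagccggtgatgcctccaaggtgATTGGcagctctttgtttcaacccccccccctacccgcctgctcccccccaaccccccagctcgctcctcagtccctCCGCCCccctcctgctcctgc
The Tnc window held 1 TATA box, at -126 to -121 from its start, and 1 GC box. A second Tnc entry, not printed since its window overlaps an annotated exon, held 2 TATA boxes, the nearer at -29 to -24. The Vcan window held 2 GC boxes and 1 CCAAT box, and the Thbs3 window 1 GC box and 1 CCAAT box. Over all 32851 windows of this length, 22.6% held a TATA box, 32.7% a GC box and 33.8% a CCAAT box. No match was found in the 3 windows to the AP-1 letters TGANTCA, held by 6.75% of all windows, or to the TEAD letters CATTCC, held by 12.6%. These letters are matches only and say nothing of binding. Entries were found for 6 of the 10 genes, and none was found for Fn1, Sparcl1, Thbs1 and Spon1.

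The wider pathway was split as well. Of 28 other matricellular genes, 26 were in the matrix, and 11 of the 25 tested were higher in CAF1 and 5 lower, with a median log2 fold change of 0.70. Edil3, an integrin ligand, had 12.5 ± 10.5 CPM in CAF1 against 0.159 ± 0.291 in CAF2 (adjusted p = 0.000355). Osteopontin (Spp1) rose by a log2 fold change of 4.91 ± 1.06, to 3821 ± 2371 CPM in CAF1 against 128 ± 155 in CAF2, and Smoc1, of the SPARC family, by 4.27 ± 1.19. Lower in CAF1 were tenascin X (Tnxb, -3.53 ± 0.71), Emilin2, an elastin-associated protein (-3.28 ± 0.26), and Spon2, the relative of Spon1 (-2.82 ± 0.48), so the F-spondin relatives Spon1 and Spon2 differed in opposite directions between the subsets.

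Among 22 genes for partners and turnover of the provisional matrix, 19 were in the matrix and 17 were tested, with 5 higher and 5 lower in CAF1 (median log2 fold change -0.20). The protease inhibitor Serpine2 was higher by 4.23 ± 0.46, the versican-cleaving protease Adamts9 by 2.42 ± 0.42 and vitronectin (Vtn), which shares integrins with fibronectin, by 2.33 ± 0.39. The hyaluronan synthase Has1 had a log2 fold change of -2.28 ± 0.57, with 1295 ± 919 CPM in CAF1 against 6327 ± 2152 in CAF2, and the proteoglycan-cleaving proteases Adamts5 and Adamts15 had -2.13 ± 0.37 and -1.66 ± 0.48.

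Of 22 genes for receptors and signal regulators, 19 were tested, 5 higher and 5 lower in CAF1 (median log2 fold change -0.32). Integrin chains stood on both sides: Itga8, a chain of a fibronectin and tenascin receptor, and Itgb5 were higher (4.48 ± 0.85 and 1.70 ± 0.36), while Itgb3 was lower (-1.82 ± 0.17). The syndecan Sdc1 was higher (2.60 ± 0.31), and the collagen receptor Ddr2 (-1.46 ± 0.16) and Tlr4 (-1.97 ± 0.23), which can bind fibronectin and tenascin fragments, were lower. Over all genes tested, 10.9% were higher and 8.59% lower, with a median of 0.01, and the lists were not tested as sets. Every luminal epithelial gene measured had a higher mean in CAF1 than in CAF2, Epcam with 227 ± 124 CPM against 22.1 ± 43.4. The part of luminal epithelial RNA in the differences of these lists was not tested.

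Endothelial cells line the tumour vessels and, set against the fibroblasts of the same tumours, show which of these genes differ between vessel wall and stroma. Against CAF1, 8 of the 10 genes were lower in endothelial cells in the fit of all libraries and the other 2, Sparcl1 and Sparc, did not pass, where 18.8% of 13610 genes were lower and 15.9% higher. Against CAF2, Sparcl1 was higher (23.7% of genes) and 8 were lower (22.3% of genes). The median log2 fold change of the 10 genes was -5.22 against CAF1 and -3.99 against CAF2, where all genes tested had -0.00 and 0.05. The 2 comparisons share the endothelial libraries.

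Sparcl1, known as a gene of high endothelial venules, had 3037, 1690.0, 1714, 2149 and 3028 CPM in endothelial cells. All 5 values lay above the highest CAF1 library (1365 CPM) and the highest CAF2 library (111 CPM). Against CAF2 the log2 fold change was 5.41 ± 0.66 (42.5-fold, adjusted p = 8.2e-08). Against CAF1 it was 1.35 ± 0.55 and missed the threshold (adjusted p = 0.0594), although endothelial cells were higher in 5 of 5 tumours; with tumour as a block in the edgeR fit it was 1.67 and passed (adjusted p = 0.00335), as it did under voom (0.012) and in a fit of these 2 groups alone (0.0209). It did not pass by DESeq2 (0.0592) or in any of the 15 fits with a library or tumour left out (0.0501 to 0.232). The endothelial and CAF1 ranges did not overlap, while the test in the fit of 30 libraries did not call the difference. The 8 endothelial markers were unequal in CAF1: Esam stood at 22.8 to 81.8 CPM, Tek at 1.39 to 9.39, Egfl7 at 2.75 to 4.0 and Erg at 0.136 to 3.01, and Kdr, Cdh5, Pecam1 and Tie1 at 0 to 1.12, 0 to 0.897, 0 to 0.439 and 0 to 0.326 CPM. The part of endothelial RNA in the CAF1 level of Sparcl1 was not tested.

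Sparc was the other gene that was not called lower. It had 14497, 24988, 5676, 17533 and 18853 CPM in endothelial cells, with the lowest value in tumour 8, and these values overlapped with those of CAF1 and CAF2. The log2 fold change was -0.99 ± 0.49 against CAF1 (95% interval -2.0 to 0.01, adjusted p = 0.122) and -0.32 ± 0.49 against CAF2 (95% interval -1.32 to 0.67, adjusted p = 0.621). As a percent of the mean CAF level of the same tumour, endothelial Sparc came to 25.5% to 126% and Sparcl1 to 237% to 1377%, beside 7 fibroblast markers that ran unevenly. Col1a1, Col1a2 and Pdgfra came to 0.122% to 3.04%, 0.163% to 2.43% and 0.0455% to 1.41%, and Dcn and Lum to 0.00976% to 0.401% and 0.00685% to 0.541%, but Pdgfrb reached from 0.187% to 34.8% and Thy1 from 0.547% to 30.03%. In tumour 8, Pdgfrb (34.4%) and Thy1 (30.03%) stood above Sparc (25.5%).

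The remaining 8 genes were lower in endothelial cells than in either CAF group. Spon1 had 10.9, 2.36, 39.3, 3.64 and 17.9 CPM and log2 fold changes of -7.11 ± 0.76 against CAF1 and -3.23 ± 0.63 against CAF2. Fn1 had 44.4, 14.0, 109.8, 14.9 and 25.7 CPM, with -5.27 ± 0.55 against CAF1 and -6.65 ± 0.59 against CAF2. Thbs3 was close to the limit of counting, with 29, 2, 21, 1 and 9 counts, and was -5.45 ± 0.59 and -8.02 ± 0.65 on the log2 scale. For each of the 8 genes the highest endothelial library lay below the lowest CAF1 library. The share of all genes without such overlap is not given here, so this describes the 8 genes only.

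Thbs1 was the least reduced of the 8. It had 333, 59.2, 100.3, 32.8 and 64.5 CPM in endothelial cells, where tumour 5 alone exceeded 101 CPM, and -2.84 ± 0.43 on the log2 scale against CAF1 and -2.43 ± 0.42 against CAF2. The difference between its fold change and those of the other genes was not tested. Postn (242, 9.72, 271, 11.6 and 80.9 CPM), Tnc (23.1, 5.70, 26.0, 7.04 and 7.20), Thbs2 (25.2, 4.52, 52.4, 2.29 and 10.6) and Vcan (6.49, 0.393, 27.3, 2.45 and 2.62) completed the group, with log2 fold changes of -6.60 ± 0.88, -5.18 ± 0.51, -5.34 ± 0.69 and -4.21 ± 0.63 against CAF1. Against CAF2 the same 4 genes had -5.25 ± 0.83, -3.37 ± 0.47, -4.61 ± 0.67 and -5.39 ± 0.66. Under voom the changes against CAF1 were larger by over 1.5-fold for 6 of the genes, at -5.97 for Fn1, -5.78 for Tnc, -7.67 for Postn, -5.49 for Vcan, -3.62 for Thbs1 and -6.41 for Thbs2. Against CAF2 voom gave -7.44 for Fn1, -6.54 for Postn, -7.05 for Vcan, -3.03 for Thbs1, -5.58 for Thbs2 and -8.63 for Thbs3, larger as well. Adjusted p values of the 8 genes ran up to 3.74e-06 against CAF1 and 0.000112 against CAF2. Spon1 overlapped with CAF2, whose tumour 10 library held 29.3 CPM.

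Within the endothelial group, tumours 5 and 8 were the 2 highest libraries for 7 of the 10 genes, Fn1, Tnc, Postn, Vcan, Thbs1, Thbs2 and Thbs3. For Sparc, Sparcl1 and Spon1 they were not, and Sparc was lowest in tumour 8. The share of all genes that were highest in tumours 5 and 8 is not given here, so the count describes the 10 genes only. The same libraries had the highest sums of the 10 pericyte and smooth muscle genes, at 846 and 1817 CPM, against 91.9 to 251 in the other 3, and of the 7 fibroblast genes, at 439 and 526 CPM, against 44.0 to 195. As a percent of the CAF mean of the same tumour, Pdgfrb, a receptor of pericytes and fibroblasts, stood at 34.8% and 34.4% there, against 0.187% to 6.11% elsewhere, and Thbs1 at 36.8% and 20.0%, against 4.79% to 8.70%. The part of such cells in the endothelial levels was not tested. With both left out, an alternative chosen after seeing the data, the 8 genes were called lower in both comparisons and the differences were larger. Against CAF1 the log2 fold change was then -6.49 for Fn1, -6.25 for Tnc, -8.47 for Postn, -6.33 for Vcan, -4.04 for Thbs1, -7.07 for Thbs2, -6.84 for Thbs3 and -8.02 for Spon1. Single libraries also moved estimates by over 1.5-fold. Without endothelial tumour 5 it was -3.72 for Thbs1 and -6.07 for Thbs3, without endothelial tumour 8 -6.04 for Fn1, -5.62 for Vcan, -6.19 for Thbs2 and -7.89 for Spon1, and without CAF1 tumour 11 -5.69 for Postn and -6.31 for Spon1. Against CAF2 the same endothelial libraries moved the same genes, to log2 fold changes of -3.31 for Thbs1 and -8.63 for Thbs3 without tumour 5, and to -7.43 for Fn1, -6.81 for Vcan, -5.47 for Thbs2 and -4.03 for Spon1 without tumour 8.

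**Figure D3:**
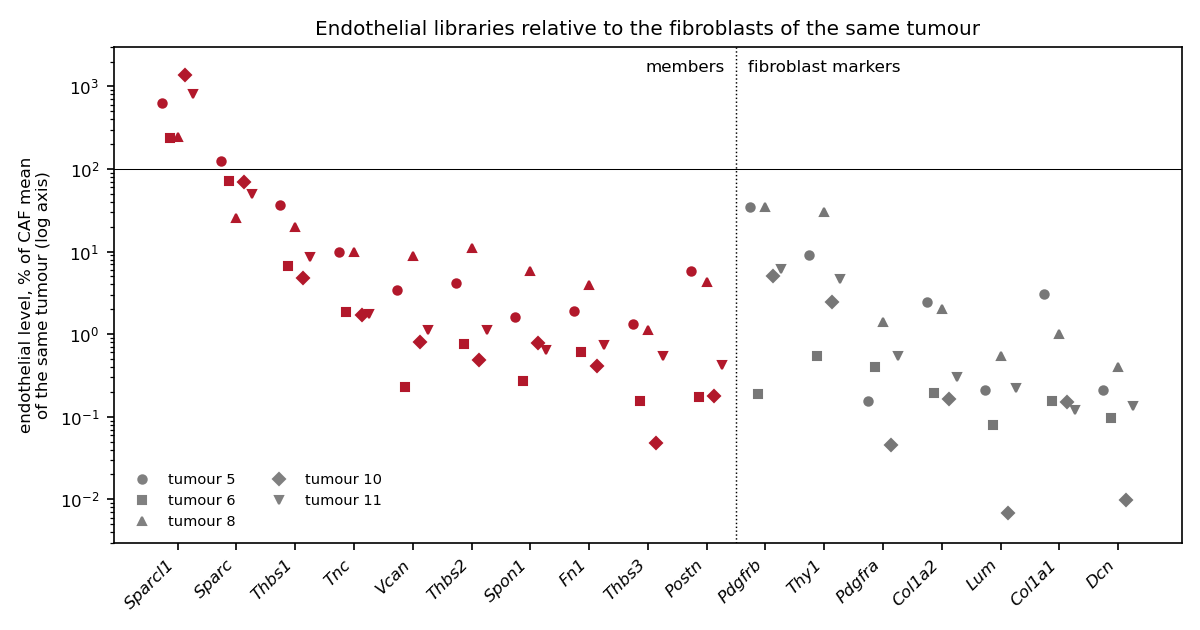
Endothelial level of the 10 genes and of 7 fibroblast markers as a percent of the mean CAF1 and CAF2 level of the same tumour, on a log axis, with 1 point per tumour and a line at 100%. Sparcl1 lies above the line in all 5 tumours, Sparc crosses it in tumour 5 alone, and tumours 5 and 8 stand highest for most other genes.

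In the pathway lists, endothelial cells differed from CAF1 in 2 higher and 18 lower of 25 other matricellular genes tested, 2 and 11 of 18 partner and turnover genes, and 5 and 10 of 22 receptor genes. Against CAF2 the counts were 6 higher and 15 lower, 5 and 9, and 7 and 10. Over all genes the shares were 15.9% higher and 18.8% lower against CAF1 and 23.7% and 22.3% against CAF2, so the counts of higher receptor genes were near the background. The medians against CAF1 were -3.17, -1.53 and -1.27 on the log2 scale.

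Macrophages are known to make some fibronectin and thrombospondin, and the comparison of both CAF groups with the 3 TAM groups shows how much of the set they carry. All 10 genes were higher in CAF, against 37.3% of 13610 genes higher and 30.8% lower. The median log2 fold change was 8.10 for the 10 genes and 0.10 for all genes. The 10 CAF and the 15 TAM libraries come from the same 5 tumours, and SDs are over the libraries of a side.

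Fn1 had the smallest of the 10 fold changes in this comparison, a log2 of 2.75 ± 0.30 (2914 ± 1499.7 CPM in CAF and 427 ± 287 in TAM), and the ranges overlapped. As a percent of the mean CAF level of the same tumour it stood at 3.28% to 26.0% in CD206hi, 14.0% to 33.2% in CD206pos and 5.72% to 18.0% in CD206neg. Thbs1 followed, with a log2 fold change of 5.24 ± 0.28 and with 0.809% to 3.20%, 2.37% to 6.07% and 2.85% to 5.65% of the CAF mean. Of the 7 fibroblast markers, Col1a1 was at 0.0108% to 0.0959% of the CAF mean in CD206hi, 0.0119% to 0.0469% in CD206pos and 0.00358% to 0.112% in CD206neg, Col1a2, Dcn and Lum at no more than 0.123% in any library, and Pdgfra at up to 0.477%. Pdgfrb reached 0.231% to 1.02%, 0% to 1.22% and 0.315% to 2.19%, and Thy1 0% to 1.03% in CD206hi, overlapping with the Thbs1 shares there, 0% to 0.769% in CD206pos and 0 in each CD206neg library. The part of fibroblast RNA in the TAM levels was not tested. Sparc (26407 ± 14224 CPM in CAF and 27.2 ± 14.0 in TAM, log2 fold change 9.89 ± 0.42) and Postn (8322 ± 9351 and 3.22 ± 2.0 CPM, 11.20 ± 0.63) had similarly low shares. In CD206hi, for example, Sparc was at 0.0688% to 0.217% and Postn at 0.0105% to 0.123% of the CAF mean.

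Sparcl1, Spon1, Vcan and Thbs2 were between these: their log2 fold changes were 6.31 ± 0.42, 6.65 ± 0.45, 8.13 ± 0.48 and 8.93 ± 0.50. Tnc and Thbs3 were at the edge of detection in macrophages, with 323 ± 235 CPM in CAF and 0.294 ± 0.342 in TAM for Tnc, and 141 ± 111 and 0.516 ± 0.632 for Thbs3. No fold is given for these genes, since no CD206pos library exceeded 3 counts of Tnc and no CD206neg library 3 counts of Thbs3. Adjusted p values of the 10 genes were 1.76e-09 or less.

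Of 25 other matricellular genes tested, 3 went against this direction and were lower in CAF: Tgfbi, an integrin ligand (12.9 ± 6.23 CPM in CAF and 498 ± 172 in TAM), Spp1 (1974 ± 2509 and 4142 ± 3997) and Emilin2 (211 ± 185 and 319 ± 57.6), while 20 were higher. Of 18 partner and turnover genes tested, 13 were higher in CAF, among them Tnfaip6 (4365 ± 2744 CPM in CAF and 2.58 ± 2.20 in TAM), and 3 lower: the crosslinking enzymes F13a1 (1.11 ± 0.782 and 1445 ± 1642) and Tgm2 (46.9 ± 13.9 and 322 ± 183) and the plasminogen activator Plau (19.6 ± 6.24 and 129 ± 40.6). The receptor list, with all-gene shares of 37.3% higher and 30.8% lower, stood near the background, with 7 of 22 genes higher in CAF, led by Ddr2, Egfr and Itgb3, and 9 lower, led by Selplg, Stab1 and Tlr2. Stab1, a scavenger receptor that takes up SPARC, had 2.07 ± 1.12 CPM in CAF and 303 ± 118 in TAM.

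Endothelial cells exceeded macrophages for 8 of the 10 genes (36.5% of genes higher, 24.7% lower; medians 3.65 and 0.17 on the log2 scale for the 10 genes and all genes), and Fn1 was the 1 gene lower. Fn1 had 41.8 ± 39.9 CPM in endothelial cells and 427 ± 287 in TAM, a log2 fold change of -3.21 ± 0.47 (adjusted p = 7.02e-07), without overlap between the 5 endothelial and the 15 TAM libraries. Spon1 is among the 8 against the TAM libraries pooled; endothelial cells averaged 14.8 ± 15.05 CPM and CD206pos 12.98 ± 3.86 CPM (SD, n = 5 each), and endothelial cells were above CD206pos in tumour 8 alone. For Sparcl1 the log2 fold change was 9.69 ± 0.49 and for Sparc 9.24 ± 0.42. Spon1 had 1.48 ± 0.47 (adjusted p = 0.00755), a call that ended without the endothelial library of tumour 8 (log2 fold change 0.69, adjusted p = 0.222), under voom (0.252) and with limma on the deposited normalised values (0.131), and Thbs3 did not pass (0.0669; 0.0407 with tumour as a block and 0.0329 by DESeq2). Postn had 5.27 ± 0.54, Thbs2 3.96 ± 0.48, Thbs1 2.60 ± 0.30 and Vcan 3.33 ± 0.52, and Tnc, higher too, is given by its levels alone (13.8 ± 9.89 CPM in endothelial cells and 0.294 ± 0.342 in TAM). Without the endothelial library of tumour 5 Thbs1 had 1.72, and without that of tumour 8 Fn1 had -3.98, Vcan 1.93 and Thbs2 3.11, all still called. A fit without both libraries, chosen after seeing the data, gave 3.404 for Postn, 2.223 for Thbs2, 1.403 for Thbs1 and 1.224 for Vcan. These differences were smaller but still called, Vcan at an adjusted p of 0.0373. In that fit Spon1 was not called (0.57), while the difference of Fn1 was larger (-4.419). Under voom the changes of 4 of these genes were smaller, at 4.04 for Postn, 1.84 for Vcan, 1.97 for Thbs1 and 3.32 for Thbs2. That of Sparcl1 was larger, at 10.5.

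The 3 macrophage groups differ in CD206 and MHC class II, and 8 of the 10 genes had enough counts to be tested between them. CD206hi cells had less Thbs1 and more Spon1 than CD206neg cells, 1 gene lower and 1 higher of 8, against 3.90% of 11052 genes lower and 6.14% higher. CD206hi cells also had less Thbs1 than CD206pos cells, 1 of 8 genes, against 0.181% lower and 0.00905% higher. CD206pos cells had more Fn1, Vcan and Spon1 than CD206neg cells, 3 of 8 genes, against 8.85% higher and 5.85% lower. In the same order, the median log2 fold changes of the 8 genes were 0.38, -0.75 and 0.40, and those of all genes 0.02, 0.00 and 0.02. Each group enters 2 of these comparisons, and the tests used a fit of the 15 macrophage libraries.

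Thbs1, whose product activates latent TGF-beta and binds CD47 and CD36, had 7.32, 7.50, 16.1, 7.58 and 7.22 CPM in CD206hi, 21.5, 37.0, 30.5, 38.4 and 18.2 in CD206pos and 30.8, 24.9, 17.5, 38.7 and 26.5 in CD206neg. In CD206hi, 4 libraries lay within 7.22 to 7.58 CPM, and the fifth, tumour 8, was still below every library of the other 2 groups. The log2 fold change was -1.59 ± 0.29 against CD206neg (3.01-fold lower, adjusted p = 0.0015) and -1.67 ± 0.29 against CD206pos (3.19-fold lower, adjusted p = 0.0239). The second call was less stable: its adjusted p was 0.127 under voom, 0.0972 in the fit of all libraries and 0.00887 to 0.334 with libraries or tumours left out, at log2 fold changes of -1.98 to -1.49. CD206pos and CD206neg differed by 0.08 ± 0.28 (95% interval -0.51 to 0.67, adjusted p = 0.882).

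Platelets carry thrombospondin 1, and 4 platelet and megakaryocyte genes were measured beside it. Their sum was 618 to 1712 CPM in CD206hi, 586 to 1981 in CD206pos and 52.3 to 139 in CD206neg, nearly all of it Pf4. Ppbp stood at 2.06 to 7.21, 1.61 to 8.48 and 0.827 to 7.20 CPM in the same groups, and Itga2b and Gp1bb stayed below 1 CPM in each of the 15 libraries. The part of platelet RNA in the Thbs1 levels was not tested. The tumours were digested with collagenase, and 6 genes that respond to tissue dissociation summed to 7285 to 35160.1 CPM in CD206hi, 6209 to 23283 in CD206pos and 4024 to 10336 in CD206neg. The part of digestion in the Thbs1 levels was not tested.

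Spon1 was low but countable in macrophages, at 6.19, 4.85, 5.41, 13.3 and 5.91 CPM in CD206hi, 15.2, 7.83, 11.6, 12.2 and 18.0 in CD206pos and 1.33, 2.90, 0.640, 1.25 and 2.69 in CD206neg. Both CD206+ groups lay above CD206neg in every library. The log2 fold change was 2.11 ± 0.40 for CD206hi against CD206neg (adjusted p = 0.0021, 0.0542 in the fit of all libraries) and 2.96 ± 0.41 for CD206pos against CD206neg (adjusted p = 0.000115). CD206hi against CD206pos did not pass (-0.85 ± 0.36, 95% interval -1.60 to -0.09, adjusted p = 0.621).

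Fn1 had 611, 319, 469.9, 285 and 113 CPM in CD206hi, 537, 736, 391, 1216 and 569.8 in CD206pos and 423, 156, 159, 222 and 204 in CD206neg. CD206pos was above CD206neg in 5 of 5 tumours, with an overlap made by tumour 5 of CD206neg and tumour 8 of CD206pos. CD206pos over CD206neg was 1.58 ± 0.41 on the log2 scale (2.99-fold, adjusted p = 0.0144). The call ended when tumour 6 or 10 was left out of all groups (adjusted p = 0.0754 and 0.119) and without the CD206neg libraries of tumours 6 and 8 (0.124). CD206hi had 0.64 ± 0.40 against CD206neg (adjusted p = 0.409) and -0.94 ± 0.40 against CD206pos (adjusted p = 0.626).

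Vcan, known as a gene of monocytes as well as of fibroblasts, was near the counting limit in macrophages, with 2, 9, 7, 1 and 3 counts in CD206hi, 21, 21, 7, 15 and 11 in CD206pos and 3, 4, 2, 4 and 1 in CD206neg. Its mean was 2.21 ± 1.43 CPM in CD206pos and 0.442 ± 0.327 CPM in CD206neg, a log2 fold change of 2.35 ± 0.72 (adjusted p = 0.0354) that was positive in 5 of 5 tumours. This call ended in 11 of 13 fits with a library or tumour left out (adjusted p = 0.0194 to 0.15 over the 13), without a filter on low counts (0.0605) and with limma on the deposited normalised values (0.0578). The 4 monocyte genes had a sum of 81.0 to 193 CPM in CD206hi, 234 to 511 in CD206pos and 10.9 to 57.4 in CD206neg. Among these Ccr2 stood at 205 to 478 CPM in CD206pos and 8.80 to 57.2 in CD206neg, while Ly6c2 was under 2 CPM in every TAM library. The part of monocytes in the Fn1, Spon1 and Vcan levels was not tested.

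The remaining 4 tested genes did not differ by the test between any macrophage groups. Sparc had means of 28.8 ± 13.8 CPM in CD206hi, 24.5 ± 12.8 in CD206pos and 28.3 ± 17.7 in CD206neg, Postn 3.64 ± 2.67, 2.87 ± 1.82 and 3.15 ± 1.76, Sparcl1 2.36 ± 1.78, 3.74 ± 2.52 and 2.44 ± 2.29, and Thbs2 1.93 ± 0.882, 0.939 ± 1.30 and 0.884 ± 0.753. The intervals were wide: for CD206hi against CD206neg, 95% of -0.85 to 0.95 for Sparc, -1.02 to 1.44 for Postn, -1.53 to 1.44 for Sparcl1 and -0.46 to 2.74 for Thbs2 on the log2 scale. Thbs3, not tested, had 27, 7, 1, 5 and 4 counts in CD206hi, 6, 1, 0, 8 and 4 in CD206pos and 2, 0, 0, 1 and 0 in CD206neg, and Tnc 10, 3, 0, 2 and 2, 0, 0, 0, 1 and 1 and 7, 2, 0, 0 and 5.

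**Figure D4:**
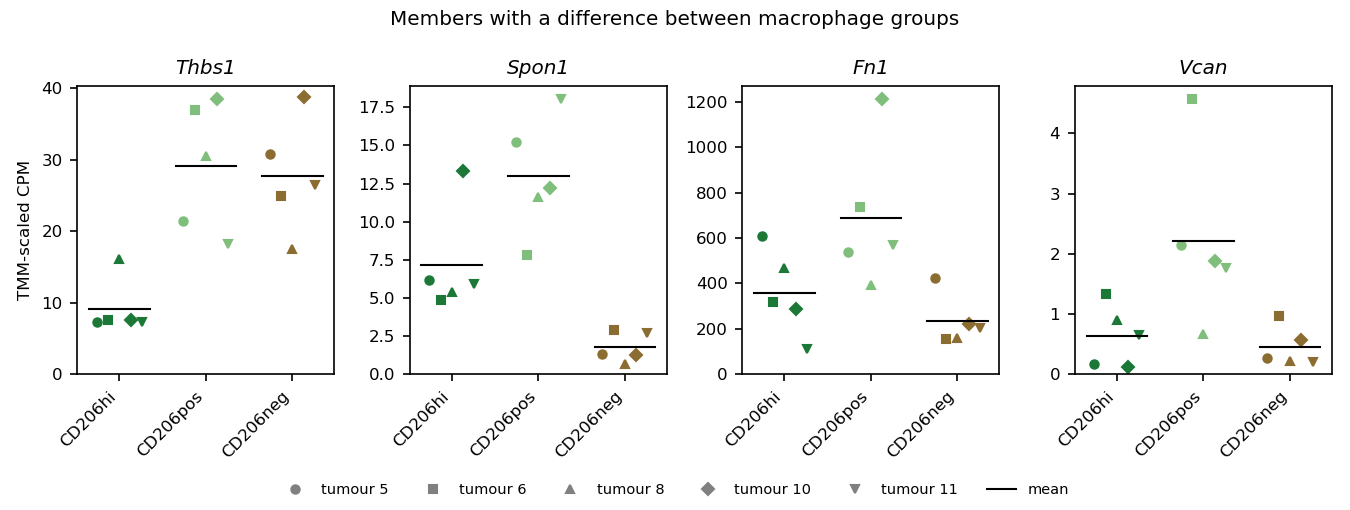
Level of Thbs1, Spon1, Fn1 and Vcan in the 15 macrophage libraries, in TMM-scaled CPM on linear axes that differ between panels and start at 0; each point is 1 tumour and the bar is the mean of 5. Thbs1 is lowest in CD206hi, Spon1 is lowest in CD206neg, and Fn1 and Vcan have their highest means in CD206pos.

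Some pathway genes were called between the macrophage groups. In CD206hi against CD206neg, F13a1, which crosslinks fibrin and fibronectin, was higher by 6.13 ± 0.73 (2483 ± 1823 CPM in CD206hi and 35.3 ± 25.5 in CD206neg), and Stab1 (1.26 ± 0.22) and Tlr4 (1.08 ± 0.33) were higher. Tgfbi (-0.87 ± 0.23), Plau (-0.77 ± 0.19), Itgb5 (-1.95 ± 0.36), Tlr2 (-1.10 ± 0.33) and Selplg (-0.94 ± 0.22) were lower. By list, 2 of 10 other matricellular genes tested were lower, 1 of 11 partner and turnover genes was higher and 2 lower, and 3 of 20 receptor genes were higher and 4 lower, with medians of -0.22, 0.62 and -0.14 on the log2 scale. In CD206pos against CD206neg, 4 of the other matricellular genes were lower, 2 of the partner and turnover genes higher and 3 lower, and 2 of the receptor genes higher and 5 lower. Over all genes 6.14% were higher and 3.90% lower in CD206hi against CD206neg, and 8.85% and 5.85% in CD206pos against CD206neg. The lists were not tested as sets. In CD206hi against CD206pos, edgeR, DESeq2 and voom each called 0 genes of the 3 lists, and at an unadjusted edgeR p under 0.05 stood 1 other matricellular gene (higher) and 3 receptor genes (1 higher, 2 lower).

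Over the 30 libraries, the gene most like each member by Pearson correlation of log2(CPM + 1) was Dram1 for Fn1 (r = 0.934), Col8a1 for Tnc (0.987), Col6a2 for Postn (0.993), Tbx18 for Vcan (0.981), Ppic for Sparc (0.994), Tmem204 for Sparcl1 (0.982), Osbpl5 for Thbs1 (0.962), Gpr153 for Thbs2 (0.991), Clip4 for Thbs3 (0.986) and Tenm3 for Spon1 (0.956). These libraries fall into 6 populations of 5, so such r mainly describe shared levels by population. Clip4, for example, averaged 0.414 CPM in endothelial cells, 8.79 in CAF1 and 61.9 in CAF2, the order of Thbs3. Tmem204 averaged 245, 126 and 16.8 CPM in the same groups, the order of Sparcl1. Dram1 averaged 108 CPM in CAF2 and 24.5, 26.8 and 13.5 CPM in CD206hi, CD206pos and CD206neg, and like Fn1 was lowest in endothelial cells, at 2.73 CPM.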

How the data were processed

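RNA of 6 sorted populations from 5 tumours was sequenced as SMARTseq v4 libraries, which do not mark strand, per the labels' protocols. Per the submitters' processing notes, the build was mm10, and the tools named, in no given order, are SAMtools 1.3.1, HISAT2 2.0.4, Trimmomatic 0.36 and DESeq2 1.26. How reads were counted, and on which annotation, is not given in the sources. The authors deposited raw counts per gene, which were tested, and the same counts divided by DESeq size factors (a normalised signal, 1 factor per library), used in an alternative. The matrix holds 14118 genes with at least 72 counts in all, of which 14104 have a symbol and 14 have none.

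Libraries were grouped by their labels. Genes were kept with edgeR 4.0.16 filterByExpr, scaled by TMM (factors 0.5474 to 1.671) and tested with glmQLFit and glmQLFTest in R 4.3.3 at an adjusted p of 0.05 over all genes, in fits of the 10 CAF, the 15 TAM or all 30 libraries (12149, 11052 and 13610 genes). The levels printed are TMM-scaled CPM. Total counts of 6292411 to 11957076 per library set the precision. Alternatives were DESeq2 1.42.0, RLE factors, other filters, voom and limma 3.58.1, other libraries in the fit, libraries left out, and tumour as a block. The tumour pairs the libraries, since same-numbered ones come from 1 mouse; their deviations from the group means correlated at 0.02 to 0.57 in all 75 pairs of the fit of all libraries.

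The members and lists were chosen with earlier results of these data known. Pathway genes named are, for each list and direction, at most 3 with the largest called change and a mean of at least 10 CPM in a group. Promoters come from the RefSeq table on GRCm38.p6, exons from GENCODE.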

Additional observations from a re-analysis of the deposited data

Results flagged for a closer look

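Of 58 groups of 5 libraries tested, 10 held a single library far from the other 4, by Dixon's test on CPM without a log. Each flagged library was the highest of its group. The usual rate of about 1 in 20 groups holds for normally distributed values, so whether the 10 flags exceed chance cannot be read from them. Each library enters once for every gene, so the flags are not independent.

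CAF1 of tumour 11 stood apart for 3 genes. Postn had 34448 CPM there, against 4274 to 8455 in the other CAF1 libraries, Thbs2 1560.4 CPM, against 380.0 to 708, and Spon1 5585 CPM, against 907 to 1525. The same library had the highest sum of 7 fibroblast genes, at 153234 CPM, against 16603 to 57934 in the others.

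In endothelial cells, Vcan had 27.3 CPM in tumour 8, against 0.393 to 6.49 in the others, and Thbs1 had 333 CPM in tumour 5, against 32.8 to 100.3. These are the libraries with the highest sums of pericyte and fibroblast genes.

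Among macrophages, Thbs1 had 16.1 CPM in CD206hi of tumour 8, against 7.22 to 7.58 in the other CD206hi libraries, and Spon1 had 13.3 CPM in CD206hi of tumour 10, against 4.85 to 6.19. Thbs2 had 3.26 CPM in CD206pos of tumour 8, against 0.307 to 0.435. Fn1 had 423 CPM in CD206neg of tumour 5, against 156 to 222. Postn had 7494 CPM in CAF2 of tumour 8, against 3566 to 4525 in the other CAF2 libraries.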

How the results depend on the processing

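With libraries left out, 1346 of the recomputed values kept direction and call, 30 lost and 5 gained the call and 39 changed sign. Under the other settings the numbers were 554, 9, 7 and 9, and some counts moved; the causes were not tested beyond the fewer samples or genes that a setting leaves. The genes of the set called in CD206hi against CD206pos were 0 under voom and 0 in the fit of all libraries, against 1 by edgeR, with unadjusted p under 0.05 for Fn1, Vcan, Thbs1 and Spon1. Between CD206pos and CD206neg they were 1, against 3, without the CD206neg libraries of tumours 6 and 8. With libraries left out they were 0 to 1 and 1 to 3.

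Genes that were not called changed sign. For CD206hi against CD206neg, log2 fold changes were -0.055 with the tumour block and -0.10 with limma for Postn, -0.031 with voom for Vcan and 0.15 with limma for Sparcl1. For CD206hi against CD206pos, Postn had -0.17 with voom. For CD206pos against CD206neg, voom gave 0.39 for Postn, -0.24 for Thbs1 and -0.081 for Thbs2, limma -0.074 for Thbs2, and the fit without CD206neg of tumours 6 and 8 0.12, -0.16 and -0.24 for Postn, Thbs1 and Thbs2. Thbs3 in endothelial cells against TAM had -0.054 without endothelial tumours 5 and 8, and Spon1 0.57 (adjusted p = 0.398), chosen after seeing the data. Left-out fits ran from -0.40 to 0.56 for Postn, -0.30 to 0.38 for Sparc and -0.59 to 0.63 for Sparcl1 in CD206hi against CD206neg. They ran from -0.17 to 0.71 for Postn and -0.18 to 0.60 for Sparc in CD206hi against CD206pos, and from -0.68 to 0.43 for Postn, -0.56 to 0.10 for Sparc, -0.072 to 0.22 for Thbs1 and -1.53 to 0.91 for Thbs2 in CD206pos against CD206neg.

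With tumour as a block, 1791 genes were called in CD206hi against CD206neg (982 higher, 809 lower), 97 in CD206hi against CD206pos (6 and 91) and 2800 in CD206pos against CD206neg (1477 and 1323), against 1110, 21 and 1625 without it. Among calls of the 10 genes it changed those of Sparcl1 in endothelial cells against CAF1 (log2 fold change 1.67) and of Thbs3 in endothelial cells against TAM (1.45), and no other. DESeq2 called 83 and the fit of all libraries 36 genes in CD206hi against CD206pos. Without CD206neg of tumours 6 and 8, 545 genes were called in CD206hi against CD206neg and 930 in CD206pos against CD206neg, and with libraries left out 535 to 1164, 0 to 48 and 765 to 2070. Of 60 places in the order per kilobase, 49 were kept with the longest transcript and 35 with the coding length.

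Low counts limit Tnc, Thbs3, Vcan and Thbs2 in macrophages. Counts without strand cannot separate a gene from an antisense partner, and sorted libraries held RNA of other cell types, whose part in these differences was not tested.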
